A study of Homo sapiens with 24 samples.

Results

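The transcripts described here encode the kinase P-TEFb (CDK9, CCNT1 and CCNT2), the 7SK complex that holds it inactive (HEXIM1, HEXIM2, LARP7 and MEPCE), the largest subunit of RNA polymerase II (POLR2A) and the large subunit of the elongation factor DSIF (SUPT5H). They were chosen by name as known parts of this pathway, with earlier results of these data known. All 9 were found by symbol among the 28277 genes of each of the 2 count tables. All 9 passed the filter on low counts, which left 15882 genes to test among the 6 libraries of 1 table and 17020 among the 18 of the other.

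RNA polymerase II pauses shortly after it starts a transcript, and P-TEFb releases it by phosphorylating the polymerase, DSIF and NELF. Much of the P-TEFb in a cell is kept inactive on the noncoding 7SK RNA, where HEXIM1 or HEXIM2 blocks the kinase, LARP7 protects the RNA and MEPCE caps it. When transcription is disturbed, cells can release P-TEFb from 7SK, and HEXIM1 is a known transcriptional target of freed P-TEFb, so its transcript is used as a gauge of that release.

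Expression was measured by RNA-seq in the human high-grade serous ovarian carcinoma lines PEO1 and PEO4, which were established from the same patient before and after resistance to chemotherapy arose. The table of 6 libraries holds untreated PEO1, which lacks working BRCA2, and untreated PEO4, in which BRCA2 function is restored. These cells were grown with added sodium pyruvate, and the genotype of both is labelled WT. The table of 18 libraries holds PEO4, labelled WT, and a PEO1 derivative with a spontaneous reversion of BRCA2, labelled BRCA2+ and called PEO1 BRCA+ here. Both lines were left untreated or given 5 µM pyridostatin (PDS), a small molecule that binds and stabilises G-quadruplexes (G4s), for 2 or 6 h. No vehicle is named for the untreated cells. There were 3 libraries in each of the 8 conditions, and the study calls them biological replicates.

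Untreated libraries in the table of 18 held 18699929 to 22375644 counts and treated libraries 33260167 to 43713947, while those in the table of 6 held 32528913 to 63882077. Ribosomal RNA took 0.217% to 0.474% of the counts in untreated libraries of the table of 18 and 0.0163% to 0.0369% in treated ones. No batch is labelled, so a difference in library preparation and the effect of PDS cannot be told apart here. The carcinoma markers PAX8, MUC16 and EPCAM were present in both lines (PAX8 stood at 176 ± 15.5 CPM in untreated PEO1 BRCA+ and 226 ± 18.9 CPM in untreated PEO4, SD, n = 3), and the immune marker PTPRC had 0 counts in those 6 libraries. In bulk RNA, fewer cells that express a gene and less of its RNA per cell cannot be told apart.

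PDS binds G4s, which form in sequence with 4 closely spaced runs of G, so the windows from 250 bases before to 50 bases after each annotated start were searched for 4 runs of at least 3 G with spacers of 1 to 7 bases of any kind, on either strand. Such a run pattern was found in 8778 of 35116 RefSeq windows of this length (25%). Among the 15 windows of the 9 genes it was found in 2, the single POLR2A window and 1 of the 3 MEPCE windows. The 2 windows are shown because they hold the pattern, with HEXIM1 for comparison because its transcript differed most between the lines in its response. They are from RefSeq on GRCh38.p14, on the plus strand, which is the coding strand of all 3 genes, and capitals mark the matched runs with their spacers.
POLR2A, chr17:7484116-7484415: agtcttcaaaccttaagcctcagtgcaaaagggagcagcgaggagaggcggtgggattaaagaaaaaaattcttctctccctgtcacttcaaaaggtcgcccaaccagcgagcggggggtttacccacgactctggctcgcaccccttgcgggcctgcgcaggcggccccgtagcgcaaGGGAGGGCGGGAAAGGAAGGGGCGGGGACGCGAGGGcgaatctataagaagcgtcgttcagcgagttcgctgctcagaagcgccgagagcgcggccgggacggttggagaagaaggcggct
MEPCE, chr7:100429581-100429880: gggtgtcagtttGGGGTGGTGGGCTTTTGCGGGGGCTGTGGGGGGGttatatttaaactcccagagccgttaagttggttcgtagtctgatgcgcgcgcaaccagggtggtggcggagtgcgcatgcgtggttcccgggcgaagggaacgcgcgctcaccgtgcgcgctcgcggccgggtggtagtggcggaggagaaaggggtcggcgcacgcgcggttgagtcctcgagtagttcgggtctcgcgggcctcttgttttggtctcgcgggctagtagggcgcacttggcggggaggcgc
HEXIM1, chr17:45148225-45148524: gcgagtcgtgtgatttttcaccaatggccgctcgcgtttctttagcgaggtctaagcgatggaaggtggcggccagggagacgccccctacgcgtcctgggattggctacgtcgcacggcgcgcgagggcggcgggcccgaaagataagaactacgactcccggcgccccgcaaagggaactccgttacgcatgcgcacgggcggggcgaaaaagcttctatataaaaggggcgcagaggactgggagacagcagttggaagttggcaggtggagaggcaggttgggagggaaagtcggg
The POLR2A match lay 71 to 36 bases before the start of the gene. The MEPCE match lay 238 to 205 bases before the alternative start that its window belongs to, which is inside the gene, so that the match is downstream of the gene start given with the MEPCE values. The HEXIM1 window was 62% G or C with no match, and the CDK9 window reached 82% G or C with no match. A match of letters does not show that a G4 forms, and no match says only that these letters are not in the window.

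HEXIM1 responded to PDS in opposite directions in the 2 lines. The gene lies at chr17:45148475-45152099 on the plus strand of GRCh38.p14 and has no intron. In PEO1 BRCA+ it stood at 128, 133 and 124 CPM (counts scaled to a common library size by TMM) untreated, at 201, 200 and 191 CPM after 2 h and at 222, 224 and 213 CPM after 6 h. Every treated library of this line was above every untreated library. The log2 fold change was 0.62 ± 0.07 at 2 h (SE, adjusted p = 7.04e-08) and 0.78 ± 0.07 at 6 h (adjusted p = 2.10e-09), or 1.54-fold and 1.71-fold. At 6 h, 3.63% of all tested genes had a larger log2 fold change. In PEO4 HEXIM1 started at 228, 185 and 247 CPM and stood at 174, 178 and 165 CPM after 2 h, with no overlap, a fall of 0.35 ± 0.07 on the log2 scale to 0.783-fold (adjusted p = 8.67e-05). After 6 h it was at 205, 202 and 201 CPM, which overlapped the untreated libraries (log2 fold change -0.12 ± 0.07, adjusted p = 0.125). The untreated PEO4 libraries spread more widely than any treated group of either line, and without untreated replicate 2, the lowest, the 6 h value was -0.22 with an adjusted p of 0.00100. With library totals in place of TMM it was -0.28 (adjusted p = 0.00137). The response in PEO4 minus that in PEO1 BRCA+ was -0.98 ± 0.10 at 2 h (adjusted p = 2.87e-08) and -0.90 ± 0.10 at 6 h (adjusted p = 7.66e-08). At 6 h the HEXIM1 levels of the lines, 219.8 ± 5.68 and 203 ± 2.18 CPM (SD, n = 3), were closer than in untreated cells, at 128 ± 4.39 and 220.2 ± 31.5 CPM.

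HEXIM2, the paralog of HEXIM1 that also inhibits P-TEFb, fell in PEO4 and did not pass the test in PEO1 BRCA+. It lies close downstream of HEXIM1 at chr17:45160174-45170040. PEO4 held 27.2, 22.2 and 28.4 CPM untreated, 18.2, 20.3 and 17.7 CPM after 2 h and 19.2, 19.3 and 19.4 CPM after 6 h, so the treated libraries lay below all untreated ones. HEXIM2 fell in PEO4, and the fall was 0.47 ± 0.09 on the log2 scale at 2 h (adjusted p = 9.16e-05) and the 6 h value was -0.43 ± 0.09 (adjusted p = 0.000231). In PEO1 BRCA+ the untreated libraries held 9.92, 10.9 and 10.8 CPM and those at 6 h 11.9, 14.01 and 11.04 CPM, with log2 fold changes of 0.14 ± 0.10 at 2 h (adjusted p = 0.261) and 0.22 ± 0.10 at 6 h (adjusted p = 0.0763). The 6 h libraries lay just above all untreated ones. The 6 h value was 0.30 without 6 h replicate 3, with an adjusted p of 0.0248. The difference between the responses was -0.61 ± 0.14 at 2 h (adjusted p = 0.00112) and -0.65 ± 0.14 at 6 h (adjusted p = 0.000432). The antisense gene HEXIM2-AS1 overlaps both HEXIM genes in RefSeq and GENCODE and has no row of its own in either count table, and whether reads were counted by strand is not given in the sources used here.

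**Figure D1:**
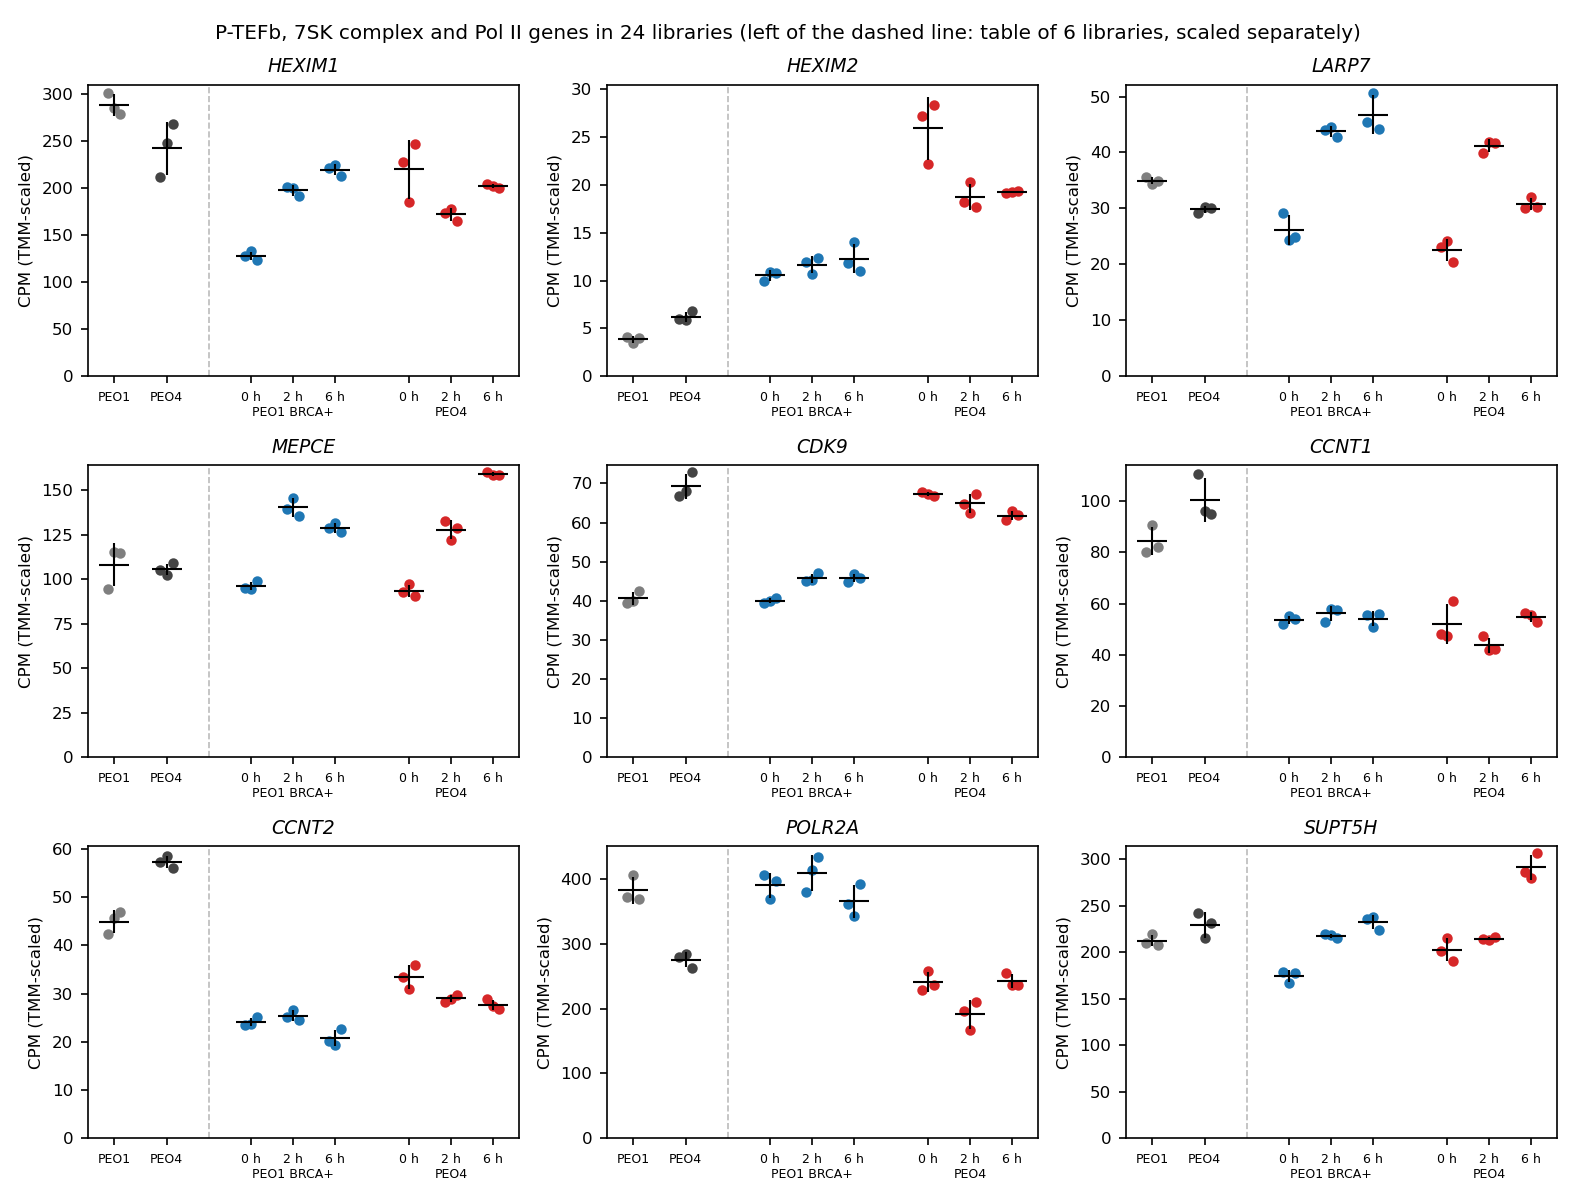
TMM-scaled CPM of the 9 genes in each library (points), with the mean and SD of 3 libraries (black bars), for the table of 6 libraries (left of the dashed line, scaled separately) and the table of 18. HEXIM1 rises from a mean of 128 to 219.8 CPM in PEO1 BRCA+ after 6 h of PDS, whereas PEO4 in the table of 18 stays between 165 and 247 CPM.

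LARP7, the protein that stabilises 7SK RNA, rose in both lines at both times. The gene lies at chr4:112637143-112657586. PEO1 BRCA+ held 29.2, 24.4 and 24.9 CPM untreated, 43.98, 44.6 and 42.7 CPM at 2 h and 45.5, 50.6 and 44.2 CPM at 6 h. PEO4 held 23.1, 24.3 and 20.5 CPM untreated, 39.9, 42.0 and 41.8 CPM at 2 h and 30.1, 32.0 and 30.3 CPM at 6 h. No treated library overlapped the untreated libraries of its line. The rise was 0.74 ± 0.07 on the log2 scale at 2 h and 0.84 ± 0.07 at 6 h in PEO1 BRCA+, and 0.87 ± 0.07 at 2 h and 0.45 ± 0.08 at 6 h in PEO4, with adjusted p from 2.76e-10 to 9.96e-06. In PEO4 the level at 6 h was below that at 2 h (log2 difference -0.42 ± 0.07, adjusted p = 1.51e-05). The response in PEO4 was smaller than in PEO1 BRCA+ at 6 h (-0.39 ± 0.10, adjusted p = 0.00344) and did not pass the test of a difference at 2 h (0.13 ± 0.10, 95% interval -0.09 to 0.34, adjusted p = 0.365).

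LARP7 shares its position with MIR302CHG, the host gene of the miR-302 cluster, which lies inside it on the other strand. In the table of 6 libraries MIR302CHG had 0 to 3 counts, at most 0.281% of the LARP7 count of the same library. In the table of 18 it had 169 to 462 counts, or 23.95% to 39.9% of the LARP7 count. The kit named for the libraries of the table of 6 keeps the strand of the RNA, and no kit is named for the table of 18. MIR302CHG counts in that table changed by a log2 of 0.25 ± 0.10 at 2 h and 0.43 ± 0.10 at 6 h in PEO1 BRCA+ (adjusted p = 0.0426 and 0.00112), and by 0.34 ± 0.11 at 2 h (adjusted p = 0.00711) and -0.07 ± 0.11 at 6 h (adjusted p = 0.555) in PEO4. All 4 values were smaller than those of LARP7, and their part in the LARP7 result was not tested.

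**Figure D2:**
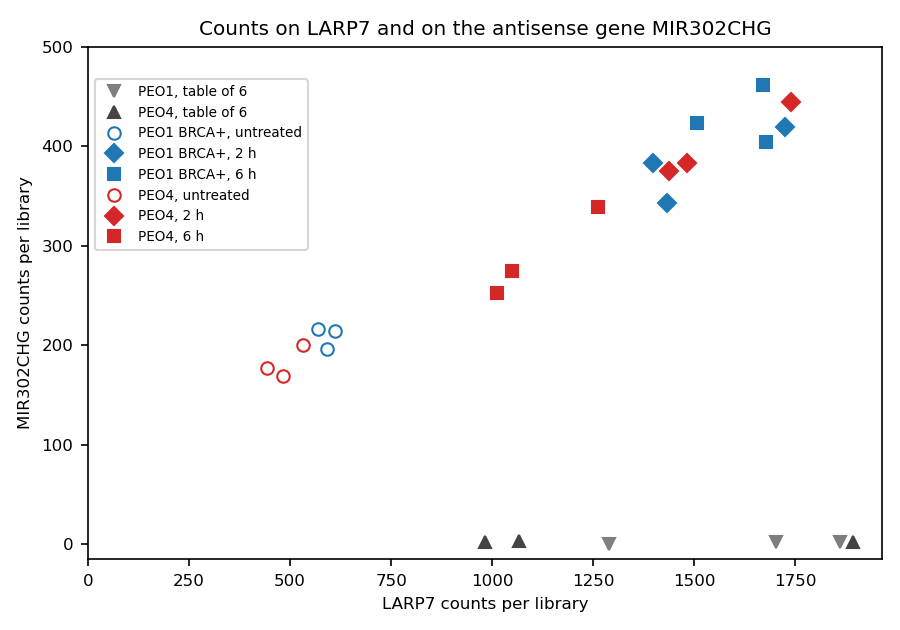
Counts per library on LARP7 (x axis) and on MIR302CHG, its antisense neighbour (y axis), for all 24 libraries, marked by condition. The 6 libraries of the smaller table lie at 0 to 3 MIR302CHG counts, whereas the 18 libraries of the other table lie at 169 to 462.

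MEPCE, the enzyme that caps 7SK RNA, also rose in both lines. The gene lies at chr7:100428790-100434118 on the plus strand. In PEO1 BRCA+ it went from 94.9, 94.7 and 98.8 CPM to 139, 146 and 136 CPM at 2 h and 129, 132 and 126 CPM at 6 h. In PEO4 it went from 92.7, 97.2 and 90.8 CPM to 133, 122 and 129 CPM at 2 h and 160, 159 and 158 CPM at 6 h. No treated library overlapped the untreated ones of its line. The log2 fold change was 0.55 ± 0.05 and 0.42 ± 0.05 in PEO1 BRCA+ and 0.45 ± 0.05 and 0.77 ± 0.05 in PEO4, with adjusted p from 1.72e-12 to 1.62e-07. The response in PEO4 was larger at 6 h (difference 0.34 ± 0.07, adjusted p = 0.000314), and at 2 h the difference was -0.10 ± 0.07 (95% interval -0.24 to 0.05, adjusted p = 0.306). ZCWPW1, which starts on the other strand and overlaps MEPCE in GENCODE, had 1.28% to 4.21% of the MEPCE count in the table of 18, and fell by 0.39 on the log2 scale in PEO1 BRCA+ at 2 h (adjusted p = 0.0316). GENCODE also places a protein-coding gene, ENSG00000289690, over MEPCE on the same strand (chr7:100397577-100434107). Its part in the MEPCE counts was not tested.

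The 7SK RNA itself (RN7SK) had few counts, 13 to 72 in the table of 18, in libraries enriched for polyadenylated RNA, which 7SK is not. Its counts in PEO1 BRCA+ were 47, 61 and 48 untreated, 26, 13 and 35 at 2 h and 26, 21 and 20 at 6 h, in libraries with more counts in all. The log2 fold change of RN7SK was -1.67 ± 0.29 and -1.83 ± 0.30 in PEO1 BRCA+ and -0.72 ± 0.26 and -1.51 ± 0.28 in PEO4 (adjusted p = 3.75e-05, 1.38e-05, 0.0171 and 3.55e-05). In PEO4 its counts were 62, 42 and 63 untreated, 47, 72 and 56 at 2 h and 43, 35 and 20 at 6 h. From 2 to 6 h in PEO4 RN7SK fell further (-0.78 ± 0.28, adjusted p = 0.0177). The ribosomal RNA share was also lower in every treated library than in any untreated one. In PEO4 that share was 0.0186% to 0.0217% at 2 h and 0.0179% to 0.0296% at 6 h, without a clear further fall. The part of library preparation in either was not tested.

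CDK9, the kinase of P-TEFb, changed little with PDS. It lies at chr9:127786034-127790792. PEO1 BRCA+ held 39.4, 40.0 and 40.8 CPM untreated, 45.1, 45.2 and 47.1 CPM at 2 h and 44.7, 46.8 and 45.9 CPM at 6 h, and CDK9 rose 1.14-fold at both times (log2 0.19 ± 0.05, adjusted p = 0.00298 and 0.00281). These calls were lost with library totals, where the values were 0.04 and 0.05 (adjusted p = 0.467 and 0.445), and with upper-quartile scaling (adjusted p = 0.0575 and 0.0772). PEO4 held 67.7, 67.4 and 66.8 CPM untreated and 60.5, 62.9 and 61.8 CPM at 6 h, a fall of 0.12 ± 0.05 on the log2 scale (adjusted p = 0.0298). That call was lost without any single library of the 6 (adjusted p from 0.0509 to 0.137). At 2 h the PEO4 libraries held 64.8, 62.5 and 67.3 CPM (log2 -0.05 ± 0.05, adjusted p = 0.359). The difference between the responses was -0.25 ± 0.07 at 2 h (adjusted p = 0.00893) and -0.32 ± 0.07 at 6 h (adjusted p = 0.000756). MIR3960 and MIR2861, hairpins that lie at the 5′ end of CDK9 in GENCODE, had at most 3.90% of the CDK9 count. MIR3960 had 21 to 22 counts in untreated PEO1 BRCA+ libraries and 1 to 5 in treated ones, and 41 to 61 in untreated PEO4 libraries and 0 to 7 in treated ones, so it did not follow CDK9.

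The cyclins of P-TEFb, CCNT1 and CCNT2, moved little after PDS, at most to 0.828-fold. CCNT1 lies at chr12:48688458-48716707 on the minus strand and CCNT2 at chr2:134918822-134959342 on the plus strand. In PEO4 CCNT1 held 48.0, 47.4 and 61.1 CPM untreated, 47.2, 41.8 and 42.2 CPM at 2 h and 56.3, 55.5 and 52.7 CPM at 6 h. It fell at 2 h by 0.25 ± 0.08 on the log2 scale (adjusted p = 0.00571) and not at 6 h (0.07 ± 0.08, adjusted p = 0.406). Untreated replicate 3 was the highest, and without it the 2 h value was -0.12 (adjusted p = 0.121) and the 6 h value 0.21 (adjusted p = 0.00894). In PEO1 BRCA+ CCNT1 lay between 51.0 and 57.9 CPM in all 9 libraries, and its log2 fold changes were 0.06 ± 0.08 and 0.01 ± 0.08 (adjusted p = 0.509 and 0.918).

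CCNT2 in PEO4 held 33.4, 31.0 and 36.0 CPM untreated, 28.4, 28.9 and 29.8 CPM at 2 h and 28.9, 27.5 and 26.8 CPM at 6 h. The treated libraries were below all untreated ones, with log2 fold changes of -0.21 ± 0.07 (adjusted p = 0.0112) and -0.27 ± 0.07 (adjusted p = 0.00123). Without untreated replicate 3 the 2 h value was -0.15 (adjusted p = 0.0860). In PEO1 BRCA+ CCNT2 held 23.6, 23.8 and 25.2 CPM untreated, 25.1, 26.7 and 24.5 CPM at 2 h and 20.3, 19.4 and 22.7 CPM at 6 h. It passed the test only at 6 h (-0.22 ± 0.07, adjusted p = 0.0135), with a value of 0.07 ± 0.07 at 2 h (adjusted p = 0.414). The 6 h call was lost without untreated replicate 3 (-0.18, adjusted p = 0.0743), 6 h replicate 1 (-0.20, adjusted p = 0.0567) or 6 h replicate 2 (-0.16, adjusted p = 0.101).

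POLR2A, the catalytic subunit that P-TEFb phosphorylates on its repeated tail, fell in PEO4 at 2 h. The gene lies at chr17:7484366-7514616. PEO4 held 229, 258 and 236 CPM untreated, 196, 167 and 211 CPM at 2 h and 255, 236 and 236 CPM at 6 h. The 2 h libraries were below all untreated ones (log2 -0.33 ± 0.07, adjusted p = 0.000389), and at 6 h the value was 0.01 ± 0.07 (adjusted p = 0.926). PEO1 BRCA+ libraries held 369 to 406 CPM untreated, 380 to 434 CPM at 2 h and 342 to 393 CPM at 6 h, with log2 fold changes of 0.07 ± 0.07 (adjusted p = 0.457) and -0.09 ± 0.07 (adjusted p = 0.297). With library totals the 6 h value in PEO1 BRCA+ was -0.24 (adjusted p = 0.00753) and with upper-quartile scaling -0.18 (adjusted p = 0.0337). The difference between the responses passed at 2 h (-0.40 ± 0.11, adjusted p = 0.00388) and not at 6 h (0.10 ± 0.11, 95% interval -0.11 to 0.32, adjusted p = 0.445).

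SUPT5H, the DSIF subunit that changes from a brake to an elongation factor once P-TEFb phosphorylates it, rose in 3 of the 4 PDS comparisons. It lies at chr19:39445582-39476670. In PEO1 BRCA+ it went from 179, 167 and 177 CPM to 220, 219 and 215 CPM at 2 h and 236, 238 and 224 CPM at 6 h, with log2 fold changes of 0.32 ± 0.05 (adjusted p = 2.04e-05) and 0.42 ± 0.05 (adjusted p = 5.63e-07). In PEO4 it held 202, 215 and 191 CPM untreated, 214, 213 and 217 CPM at 2 h (0.08 ± 0.05, adjusted p = 0.178) and 287, 280 and 307 CPM at 6 h (0.52 ± 0.05, adjusted p = 4.40e-09). Only the 6 h libraries of PEO4 stood clear of its untreated libraries, and without untreated replicate 2 the 2 h value was 0.13 (adjusted p = 0.0457). The response was smaller in PEO4 at 2 h (-0.24 ± 0.08, adjusted p = 0.0155), and at 6 h the difference was 0.11 ± 0.08 (95% interval -0.05 to 0.26, adjusted p = 0.256).

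**Figure D3:**
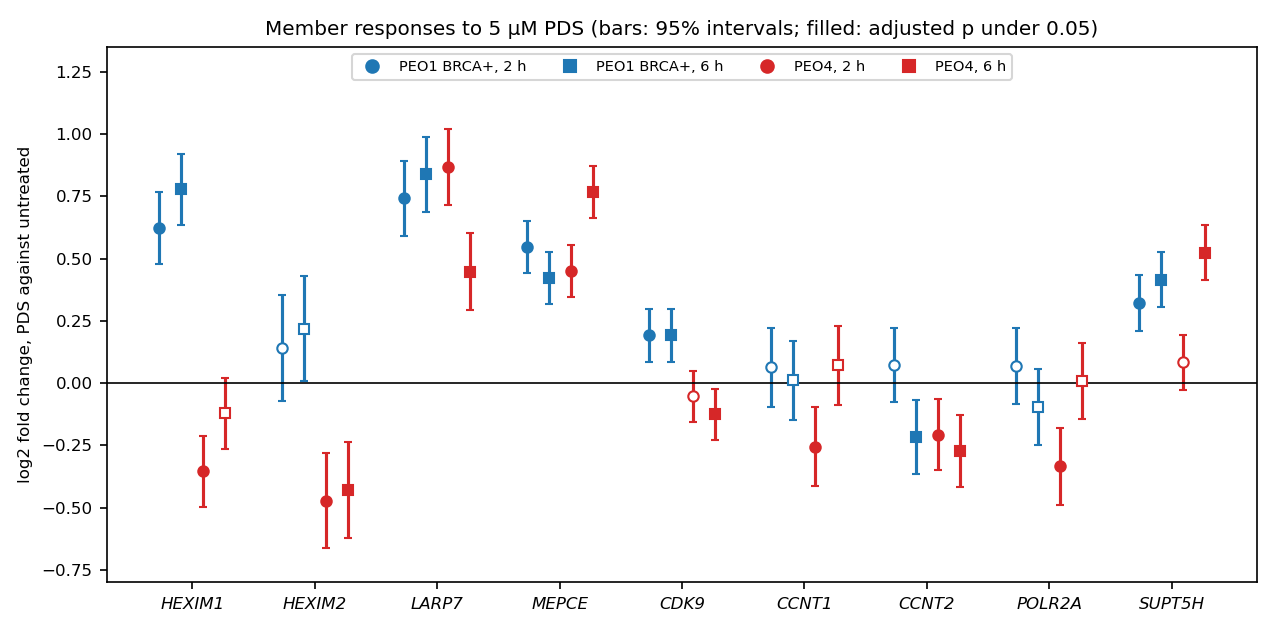
Log2 fold change of each gene after 5 µM PDS against untreated cells, for PEO1 BRCA+ (blue) and PEO4 (red) at 2 h (circles) and 6 h (squares), with 95% intervals and filled symbols where the adjusted p was under 0.05. HEXIM1 lies at 0.62 and 0.78 in PEO1 BRCA+ and at -0.35 and -0.12 in PEO4, whereas LARP7 and MEPCE lie above 0 in all 4 comparisons.

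Counted over the 9 genes, more rose than fell in PEO1 BRCA+ at both times, and fewer rose than fell in PEO4 at 2 h. In PEO1 BRCA+ 5 rose and 0 fell at 2 h, where 26.4% of all tested genes rose and 26.2% fell, and by edgeR 0 of the 4 others had an unadjusted p under 0.05 and DESeq2 likewise called 0 as lower. At 6 h 5 rose and 1 fell, beside 27% and 26% of all genes. In PEO4 2 rose and 5 fell at 2 h, beside 33.3% and 32% of all genes, and 3 rose and 3 fell at 6 h, beside 34.6% and 35.2%. The calls in PEO4 at 2 h numbered 3 lower without untreated replicate 3. The median log2 fold change of the 9 genes was 0.19 and 0.22 in PEO1 BRCA+ at 2 and 6 h and -0.21 and 0.01 in PEO4, and that of all tested genes -0.03, -0.03, 0 and -0.03. No gene of the 9 passed an absolute log2 fold change of 1 after PDS, which 7.57% and 8.13% of all genes did in PEO1 BRCA+ and 17.4% and 22.6% in PEO4. Both lines were compared with their own untreated libraries, and the values at 2 and 6 h share these libraries.

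The response differed between the lines for 7 of the 9 genes at 2 h, all lower in PEO4, and for 5 at 6 h, beside 37.3% and 47.4% of all tested genes. At 2 h these were HEXIM1, HEXIM2, CDK9, CCNT1, CCNT2, POLR2A and SUPT5H. At 6 h HEXIM1, HEXIM2, CDK9 and LARP7 were lower in PEO4 and MEPCE was higher. For CCNT1 and CCNT2 the 2 h differences were -0.32 ± 0.11 (adjusted p = 0.0238) and -0.28 ± 0.10 (adjusted p = 0.0294). Without untreated PEO4 replicate 3 they were -0.19 (adjusted p = 0.105) and -0.22 (adjusted p = 0.0866). The CCNT1 call was also lost without PEO1 BRCA+ untreated replicate 1 or its 2 h replicate 2 or 3 (adjusted p from 0.0502 to 0.0545), and the CCNT2 call without PEO1 BRCA+ untreated replicate 1 or 2, its 2 h replicate 2 or PEO4 2 h replicate 1 (adjusted p from 0.0527 to 0.0782). From 2 to 6 h, 1 of the 9 changed in PEO1 BRCA+ (CCNT2, -0.29 ± 0.07, adjusted p = 0.0114), beside 6.94% of all genes, and 6 changed in PEO4, beside 60.1%. In PEO4 HEXIM1, CCNT1, MEPCE, POLR2A and SUPT5H were higher at 6 h than at 2 h, by 0.23 to 0.44 on the log2 scale, and LARP7 was lower. The CCNT2 call was lost without 2 h replicate 2 (-0.25, adjusted p = 0.0819), 6 h replicate 1 (-0.27, adjusted p = 0.0679) or 6 h replicate 2 (-0.24, adjusted p = 0.0835).

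Untreated PEO4 differed from both PEO1 lines in several of these genes, and HEXIM1 went in opposite directions in the 2 pairs. In the table of 6 libraries HEXIM1 stood at 301, 286 and 278 CPM in PEO1 and 212, 248 and 268 CPM in PEO4 (log2 -0.25 ± 0.09, adjusted p = 0.0281). Against PEO1 BRCA+, PEO4 was higher by 0.78 ± 0.07 (adjusted p = 4.01e-10). The groups did not overlap in either pair. The call in the table of 6 was lost without PEO1 replicate 1 (-0.22, adjusted p = 0.0893), PEO1 replicate 2 (-0.26, adjusted p = 0.0661) or PEO4 replicate 1 (-0.16, adjusted p = 0.0518), and with upper-quartile scaling (-0.19, adjusted p = 0.0884). The tables were scaled separately, so no test was made between them.

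CDK9, CCNT2 and HEXIM2 were higher in PEO4 in both pairs, and POLR2A and LARP7 were lower. CDK9 was 1.70-fold higher against PEO1 (log2 0.77 ± 0.08, adjusted p = 2.01e-06) and 1.68-fold higher against PEO1 BRCA+ (0.75 ± 0.05, adjusted p = 2.90e-12), with no overlap of libraries. CCNT2 was higher by 0.35 ± 0.08 (adjusted p = 0.00138) and 0.47 ± 0.07 (adjusted p = 2.92e-06). HEXIM2 was higher by 0.68 ± 0.16 (adjusted p = 0.00303) and by 1.30 ± 0.10 (adjusted p = 2.75e-11), or 2.46-fold, the only 1 of the 9 past 2-fold in either pair, as 25.8% and 24.8% of all genes were. POLR2A was lower by -0.47 ± 0.08 (adjusted p = 0.000146) and -0.69 ± 0.07 (adjusted p = 1.12e-08), to 0.721-fold and 0.618-fold. The LARP7 difference was -0.23 ± 0.08 (adjusted p = 0.0240) and -0.21 ± 0.08 (adjusted p = 0.0184), and lost its call without any 1 of several libraries, in the table of 6 without PEO1 replicate 1, 2 or 3 or PEO4 replicate 3 (adjusted p from 0.0510 to 0.0715) and in the table of 18 without PEO1 BRCA+ replicate 1 or PEO4 replicate 3 (adjusted p = 0.166 and 0.122).

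The other members differed less. CCNT1 passed in the table of 6 (0.25 ± 0.08, adjusted p = 0.0168; without PEO1 replicate 1 or 3, adjusted p = 0.0669 and 0.0690) and had a value of -0.04 ± 0.08 (adjusted p = 0.641) in the table of 18, where it was -0.17 (adjusted p = 0.0288) without PEO4 replicate 3. SUPT5H passed in the table of 18 (0.22 ± 0.05, adjusted p = 0.000996) and had a value of 0.11 ± 0.07 in the table of 6 (adjusted p = 0.199). MEPCE did not pass in either (-0.04 ± 0.09 and -0.04 ± 0.05). Against PEO1, 4 of the 9 were higher in PEO4 and 3 lower, beside 30.1% and 31.6% of all tested genes. Against PEO1 BRCA+, 5 were higher and 2 lower, beside 34% and 34.6%.

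Per kilobase of merged exons, HEXIM1, POLR2A, MEPCE and SUPT5H were the most abundant of the 9 transcripts in every condition, and the cyclins, LARP7 and HEXIM2 the least. In untreated PEO4 of the table of 18, HEXIM1 stood at 60.7 CPM per kb ± 8.70, POLR2A at 28.9 ± 1.82, MEPCE at 27.8 ± 0.974, SUPT5H at 23.7 ± 1.44 and CDK9 at 22.4 ± 0.146 (SD, n = 3). POLR2A and MEPCE lay within their spread of each other, as did SUPT5H and CDK9. HEXIM2 followed at 12.9 ± 1.63, CCNT1 at 7.08 ± 1.06, CCNT2 at 3.69 ± 0.275 and LARP7 at 2.79 ± 0.240 CPM per kb. In untreated PEO1 BRCA+ POLR2A was the highest at 46.7 ± 2.31 CPM per kb and HEXIM1 followed at 35.4 ± 1.21, and after 6 h of PDS HEXIM1 was the highest at 60.6 ± 1.57, above POLR2A at 43.7 ± 3.07. The order depends on the length used. With the longest annotated transcript in place of merged exons, which for LARP7 is 3204 bases in place of 8094 and for SUPT5H 3902 in place of 8568, SUPT5H ranked 2 in untreated PEO4 at 52.0 CPM per kb and LARP7 stood at 7.05.

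**Figure D4:**
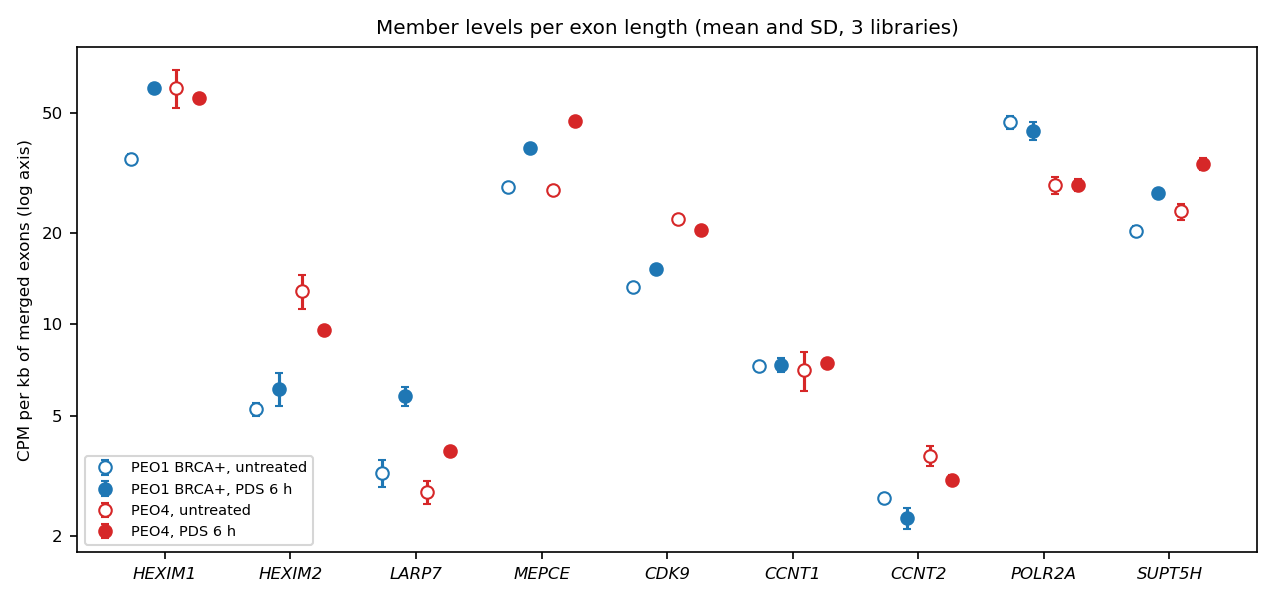
Level of each transcript in CPM per kilobase of merged exons on a log axis (mean and SD, 3 libraries), untreated (open) and after 6 h of PDS (filled), in PEO1 BRCA+ (blue) and PEO4 (red). HEXIM1 in treated PEO1 BRCA+ (60.6) reaches the level of untreated PEO4 (60.7), and POLR2A is higher in PEO1 BRCA+ than in PEO4 in both states.

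Other genes of the pathway were counted from 10 lists of known parts, to be read against all tested genes, of which 26.4% rose and 26.2% fell at 2 h and 27% and 26% at 6 h in PEO1 BRCA+, and 33.3% and 32% at 2 h and 34.6% and 35.2% at 6 h in PEO4. Proteins that bind or remodel the 7SK complex, with RN7SK itself, numbered 11, with 10 higher and 1 lower (RN7SK) at both times in PEO1 BRCA+, and 8 and 9 higher and 1 lower in PEO4 at 2 and 6 h. JMJD6, a demethylase linked to release of P-TEFb, went from 33.7, 32.0 and 35.0 CPM in untreated PEO4 to 142, 137 and 139 CPM at 6 h, a rise of 2.05 on the log2 scale (adjusted p = 4.82e-19), and rose by 0.88 in PEO1 BRCA+ (adjusted p = 1.11e-11). DDX21, a helicase that frees P-TEFb from 7SK, rose by 0.51 and 0.91 at 6 h in PEO1 BRCA+ and PEO4 (adjusted p = 7.08e-08 and 9.04e-13). Of the other subunits of RNA polymerase II, 9 and 10 of 11 rose in PEO1 BRCA+ at 2 and 6 h and 9 and 11 in PEO4, and by edgeR 0 fell in any of the 4, with 0 at an unadjusted p under 0.05 and 0 by DESeq2. POLR2L and POLR2F, small shared subunits, rose by 0.94 and 0.90 at 6 h in PEO1 BRCA+ and by 0.94 and 1.29 in PEO4, in contrast to POLR2A. The 7SK list and the polymerase list had medians of 0.29 to 0.37 and of 0.34 to 0.53 over the 4 comparisons.

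Pausing and elongation factors included genes that rose and genes that fell, and several of their counts were near the shares over all genes. These shares were 26.4% and 27% rising and 26.2% and 26% falling in PEO1 BRCA+ at 2 and 6 h, and 33.3% and 34.6% rising and 32% and 35.2% falling in PEO4. Of 5 tested genes on the DSIF and NELF list, 3 rose and 1 fell in each PDS comparison. NELFB was at 0.67 and SUPT4H1, the partner of SUPT5H, at 0.38 in PEO4 at 6 h (adjusted p = 5.00e-09 and 1.91e-06). In each comparison the gene that fell was POLR2M, which encodes a subunit of neither DSIF nor NELF. It was at -0.58 in PEO4 at 6 h (adjusted p = 4.21e-09), and none of the tested DSIF and NELF subunits was called as lower. The NELF subunit NELFE had 0 counts in every library, so it could not be tested. Of 6 PAF1 complex genes, 5 rose at both times in PEO1 BRCA+ and 4 rose and 1 fell at both times in PEO4, and in PEO1 BRCA+ 0 fell by edgeR, with 0 at an unadjusted p under 0.05 and 0 by DESeq2. LEO1 rose by 0.91 and CDC73 by 0.70 in PEO4 at 6 h (adjusted p = 8.10e-11 and 7.50e-09), and PAF1 itself rose by 0.47 in PEO1 BRCA+ and 0.54 in PEO4 (adjusted p = 1.08e-07 and 3.26e-09). Of the 14 Integrator subunits tested, 10 and 8 rose and 0 and 1 fell in PEO1 BRCA+ at 2 and 6 h by edgeR, where the 0 compares with 2 at an unadjusted p under 0.05 and 1 by DESeq2. In PEO4 4 rose and 3 fell at 2 h, with a median of -0.087, and 9 rose and 2 fell at 6 h. INTS13 was at 1.354 and INTS12 at 0.98 in PEO4 at 6 h. INTS7 rose by 0.65 in PEO1 BRCA+ and 0.92 in PEO4 at 6 h (adjusted p = 6.99e-07 and 1.60e-09) and was at -0.06 in PEO4 at 2 h (adjusted p = 0.574). Among 11 elongation factors and histone chaperones 7 and 6 rose and 2 and 2 fell in PEO1 BRCA+, and 6 and 7 rose and 2 and 1 fell in PEO4. ELOC and SSRP1 rose by 1.13 and 0.91 in PEO4 at 6 h. Among 14 other kinases and phosphatases of the polymerase tail 6 and 7 rose and 3 fell in PEO1 BRCA+, and 5 and 9 rose and 4 and 2 fell in PEO4, so that at 2 h in PEO4 both directions were near the shares over all genes. MNAT1, a subunit of the kinase of TFIIH, rose by 0.70, CDK8 by 0.82, and the phosphatase CTDSP2 was at -0.90 in PEO4 at 6 h (adjusted p = 6.78e-13).

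Genes that recruit P-TEFb or depend on it were counted against the same shares, 26.2% and 26% of all genes falling in PEO1 BRCA+ and 32% and 35.2% in PEO4 at 2 and 6 h. Of 10 genes of the super elongation complex, 2 rose and 3 fell at 2 h and 3 rose and 3 fell at 6 h in PEO1 BRCA+, and 4 rose and 2 fell at 2 h and 4 rose and 4 fell at 6 h in PEO4, close to the shares over all genes. In PEO4 at 6 h ELL2, a subunit of the complex, rose by 1.81 (adjusted p = 4.01e-05). Its untreated PEO4 libraries spread from 5.53 to 18.2 CPM, and those at 6 h held 36.6 to 38.3 CPM. The scaffold genes AFF1 and AFF3 were at -0.96 and -1.89 in PEO4 at 6 h (adjusted p = 1.34e-10 and 4.34e-08). In PEO1 BRCA+ ELL2 was at 0.30 at 6 h (adjusted p = 0.306) and AFF3 at -1.35 (adjusted p = 0.000107). Of 3 tested BET genes, which encode acetyl-lysine readers that bind P-TEFb, 2 fell in each comparison except PEO1 BRCA+ at 6 h, where 1 fell, and 1 rose in PEO4 at 6 h. BRD3 was at -0.22 in PEO1 BRCA+ and -0.80 in PEO4 at 6 h (adjusted p = 0.0109 and 9.71e-10), and BRD2 at -0.91 in PEO4 (adjusted p = 0.000119) on 59 to 88 counts per library in untreated and 6 h cells. The list of short-lived transcripts chosen as sensitive to CDK9 inhibition held 12 genes. Of these, 6 fell at each time in PEO1 BRCA+ and 6 and 8 in PEO4, while 3, 2, 4 and 3 rose. Past 2-fold in PEO4 at 6 h, 4 fell and 1 rose, beside 22.6% of all genes past 2-fold either way. The log2 fold changes of the list ran from -4.28 to 2.30 there. EGR1 went from 704, 537 and 301 CPM in untreated PEO4 to 48.9, 56.4 and 39.8 CPM at 6 h and was at -3.41 (adjusted p = 1.09e-06), and in PEO1 BRCA+ at -4.01 (adjusted p = 1.79e-06). FOS was at -2.36 and -4.28 at 6 h in PEO1 BRCA+ and PEO4 (adjusted p = 0.00521 and 2.78e-05), with untreated PEO4 libraries spread from 75.8 to 412 CPM.

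**Figure D5:**
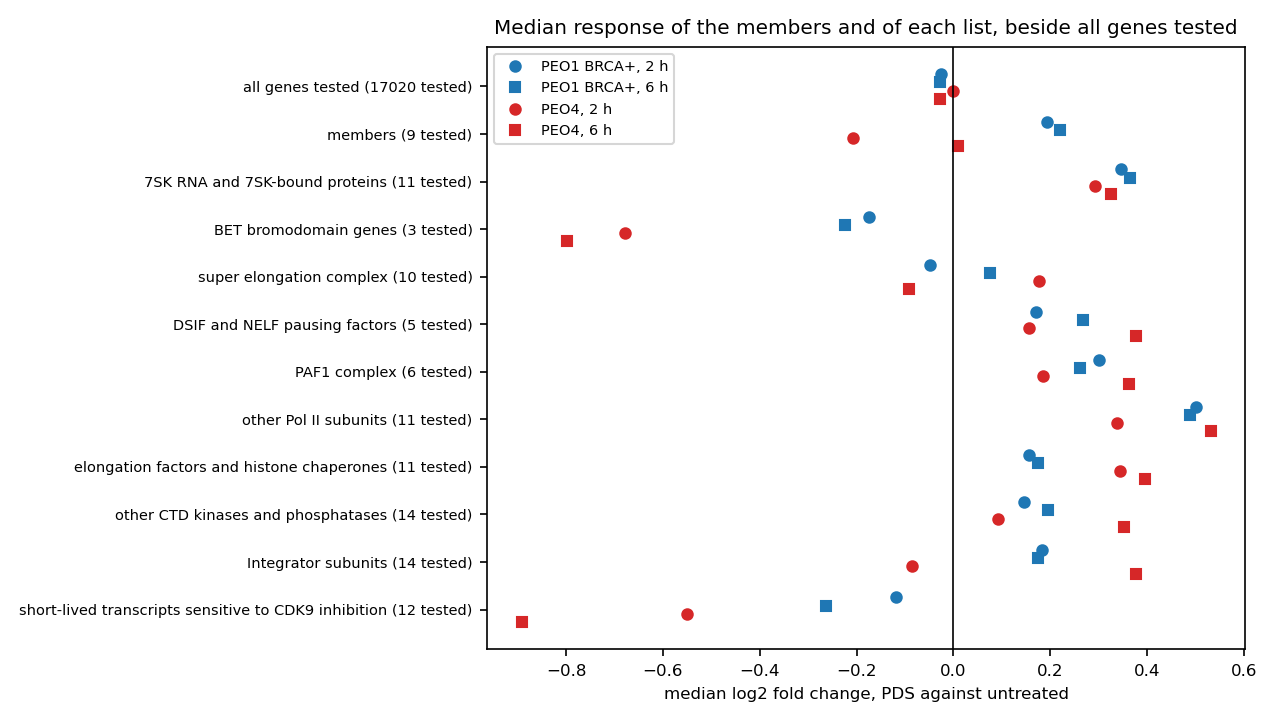
Median log2 fold change after PDS of the 9 genes, of each list of other pathway genes and of all 17020 tested genes, for PEO1 BRCA+ (blue) and PEO4 (red) at 2 h (circles) and 6 h (squares). The other polymerase subunits lie at 0.34 to 0.53, and the short-lived transcripts at -0.89 in PEO4 at 6 h.

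The genes whose pattern was most like that of HEXIM1 over the 18 libraries, with log2 CPM centred within each line, were TMEM40, SCAMP2 and SMAD2, with Pearson correlations of 0.922, 0.916 and 0.903 among 10495 genes. TMEM40 was at 1.08 and 1.20 in PEO1 BRCA+ and at -0.66 and -0.60 in PEO4 at 2 and 6 h on the log2 scale. SCAMP2 moved by 0.14 and 0.23 in PEO1 BRCA+ and by -0.11 and -0.03 in PEO4, so its likeness is in the shape of the pattern and not in size. The points share depth and preparation within each condition, and the correlations are given as a description.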

How the data were processed

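RNA-seq counts were analysed for 24 libraries, 6 in 1 table and 18 in another. Per the labels and the study's methods, the authors enriched polyadenylated RNA, checked and trimmed reads with FastQC and fastp, aligned them to hg38 with STAR and counted genes with featureCounts, and the deposited tables hold their raw gene counts, with no scaling. The annotation and the strand setting are not given in the sources used here. All columns of per-sample values were used.

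Each table was fitted whole in R 4.3.3 with edgeR 4.0.16 (filterByExpr with a minimum count of 10 and a minimum total of 15, TMM, robust quasi-likelihood test, a mean per condition). A gene passed at a Benjamini-Hochberg adjusted p under 0.05 over all genes of its table. DESeq2 1.42.0, other scalings and filters, a replicate block and each library left out were alternatives. No pair of replicate libraries agreed within sampling noise (chi-square per degree of freedom from 2.13 to 52.1), so none was counted as a duplicate. Beyond the word biological, no source says how replicates were separated, so p-values measure the spread between these libraries. On simulated data for PEO4 at 6 h with 16612 genes, 99 of 100 genes changed 2-fold were recovered by edgeR, with 10 false calls. Every simulated gene had the same dispersion, and only a small set of well-counted genes was changed. In the real comparison 11881 genes passed, so these figures are not error rates for the real data. Changes below 2-fold, the size of every member change after PDS, were not simulated, so their recovery is not known. Lengths are from GENCODE and promoters from RefSeq.

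The 9 members and the lists were chosen with earlier results of these data known. List genes were named by rule: for each list, the 2 with the largest absolute log2 fold change after 6 h of PDS in each line among those with a mean log2 CPM of at least 1. The 3 genes most like HEXIM1 were taken from those with a mean log2 CPM of at least 3. RN7SK and the neighbours that overlap a member were named after their values were seen.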

Additional observations from a re-analysis of the deposited data

Results flagged for a closer look

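The difference between the PDS responses of PEO4 and PEO1 BRCA+ passed the interaction test for 7 of the 9 genes at 2 h. On the log2 scale it was -0.98 for HEXIM1, -0.61 for HEXIM2, -0.25 for CDK9, -0.32 for CCNT1, -0.28 for CCNT2, -0.40 for POLR2A and -0.24 for SUPT5H. At 6 h it passed for 5 genes, at -0.90 for HEXIM1, -0.65 for HEXIM2, -0.32 for CDK9, -0.39 for LARP7 and 0.34 for MEPCE. HEXIM1 also differed in the direction of its untreated difference, at -0.25 in PEO4 against PEO1 in the table of 6 libraries and 0.78 in PEO4 against PEO1 BRCA+ in the table of 18, with every PEO4 library on its side of the others in both. That last difference was not tested, since the tables were scaled separately and the lines of the 2 tables differ in growth medium and possibly in library kit. Groups of 3 libraries are too small for a test of single outlying libraries.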

How the results depend on the processing

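Member fold changes were refitted under other settings 1085 times, and 1000 kept their direction and their side of the threshold, 42 lost the call, 12 gained it and 31 changed sign. For 6 h against 2 h and for the difference between the lines, only fold changes that passed in the main fit were included. Calls gained by the others in those comparisons are therefore not among the 12. None of those that changed sign had passed the test, and the cause was not tested. In untreated cells the MEPCE difference between PEO4 and PEO1 was 0.023 with upper-quartile scaling and ran from -0.13 to 0.0099 with single libraries left out, and CCNT1 in PEO4 against PEO1 BRCA+ ran from -0.17 to 0.024. After 2 h of PDS in PEO1 BRCA+, library totals gave -0.0060 for HEXIM2, -0.084 for CCNT1, -0.075 for CCNT2 and -0.078 for POLR2A, and upper-quartile scaling gave -0.015 for CCNT1, -0.0063 for CCNT2 and -0.0097 for POLR2A. After 6 h CCNT1 in that line was at -0.14 with library totals, -0.077 with upper-quartile scaling, -0.015 with a minimum count of 50, -0.00032 with only the groups compared and -0.0030 to 0.063 with single libraries left out. In PEO4 library totals gave -0.045 for SUPT5H at 2 h and, at 6 h, -0.089 for CCNT1 (upper quartile -0.041) and -0.15 for POLR2A. POLR2A at 6 h in PEO4 was also at -0.10 with upper-quartile scaling, -0.011 with DESeq2 or its size factors or only the groups compared, -0.042 with a minimum count of 50, and -0.021 to 0.068 with single libraries left out. Library totals moved the median of all genes by -0.148 and -0.146 in PEO1 BRCA+ and -0.129 and -0.160 in PEO4 at 2 and 6 h relative to TMM.

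The number of members lower in PEO4 than PEO1 was 1 with upper-quartile scaling or an adjusted p under 0.01, and 1 to 3 with single libraries left out. Against PEO1 BRCA+ it was 1 with only the groups compared or under 0.01, and 1 to 2 with libraries left out. The number lower in PEO1 BRCA+ at 6 h was 2 with library totals or upper-quartile scaling, 0 under 0.01, and 0 to 1 with libraries left out, and in PEO4 at 2 h it was 3 to 5. From 2 to 6 h in PEO1 BRCA+ 2 members passed with DESeq2, 3 with only the groups compared, 0 under 0.01, and 0 to 1 with libraries left out. The responses of the lines differed for 4 members at 2 h under 0.01. Over all comparisons 1 to 3 member differences passed 2-fold with libraries left out, and 16 passed an absolute log2 fold change of 0.58. Summed over the 4 PDS comparisons, 5 BET calls were left under 0.01 and 13 PAF1 complex calls with library totals.

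Same-numbered libraries did not deviate together (correlations from -0.043 to 0.023 over 3 pairs in the smaller table and from -0.158 to 0.134 over 45 pairs in the larger), so the numbers were not taken as pairs. With the replicate block all 73 member fold changes included in the refits kept their direction and side of the threshold, and 8862 genes passed in place of 8947 in PEO1 BRCA+ at 2 h. Fold changes that did not pass in the main fit for 6 h against 2 h or between the lines are not among the 73. HEXIM2, with the lowest counts of the members, carries the widest error.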
